A study of Mus musculus with 8 samples.

Results

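A set of 10 genes that control or mark the 2-cell-like state was followed in mouse embryonic stem cells (ESCs) with reduced Kdm2b. The genes were chosen by name for their known roles, with earlier results of the same arrays in view, so that the differences between the groups are given for them as a description and without a p-value. All 10 are measured by at least 1 probe set that names them alone, out of 19938 genes measured in this way, and together they hold 14 of the 21789 such probe sets. Dppa2, Dppa4, Dppa3 and Smchd1 have 2 probe sets each and the other 6 genes have 1.

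The knockdown samples were E14 cells, a mouse ESC line of male origin grown with LIF, that stably carried an shRNA against Kdm2b (shKdm2b, passages 27 to 30). The control samples were E14 cells with a scrambled shRNA (shScr, passages 28 to 31). Both shRNAs were delivered by lentivirus with puromycin selection, each group carries 1 shRNA sequence, and 4 samples of each went onto 1 Affymetrix Mouse Gene ST array each. The study calls the samples biological replicates without naming separate lines, so that the spread between arrays does not cover differences between shRNAs or lines. Values are log2 signals that the authors made with RMA, which gives all arrays nearly the same distribution (medians 8.47 to 8.53).

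A small fraction of cells in an ESC culture passes through the 2-cell-like state, in which genes of the cleavage-stage mouse embryo and endogenous retroviruses are transcribed. DPPA2 and DPPA4, a pair of DNA binding proteins with a SAP domain, work as a heterodimer upstream of the transcription factor DUX, which switches this programme on. Most of the other genes of the set keep it off: TRIM28 and SETDB1 place repressive histone methylation on retroviral sequence, CHAF1A and CHAF1B are subunits of the CAF-1 nucleosome assembly factor, KDM1A removes methyl groups from histone H3, and SMCHD1 is a chromosome-organising repressor.

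Zfp352, a zinc finger gene that marks the state, has a promoter unlike those of the repressors in the set. The sequences of Zfp352 and of Setdb1 are shown because they stand for the contrast in CpG content. KDM2B binds CpG through its zinc finger where the CpG is not methylated, and the methylation of these windows was not measured here. Both are RefSeq windows of GRCm38.p6, from 250 bases before to 50 bases after the gene start. For Zfp352 (chr4:90218570-90218869, plus strand) capitals mark each TAATCC, and for Setdb1 (chr3:95357153-95357452, minus strand) capitals mark each CpG.
Zfp352: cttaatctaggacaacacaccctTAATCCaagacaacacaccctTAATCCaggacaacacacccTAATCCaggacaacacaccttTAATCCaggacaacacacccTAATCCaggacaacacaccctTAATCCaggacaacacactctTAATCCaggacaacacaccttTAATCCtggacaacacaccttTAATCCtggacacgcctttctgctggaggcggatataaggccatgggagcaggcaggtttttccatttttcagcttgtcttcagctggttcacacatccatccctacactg
Setdb1: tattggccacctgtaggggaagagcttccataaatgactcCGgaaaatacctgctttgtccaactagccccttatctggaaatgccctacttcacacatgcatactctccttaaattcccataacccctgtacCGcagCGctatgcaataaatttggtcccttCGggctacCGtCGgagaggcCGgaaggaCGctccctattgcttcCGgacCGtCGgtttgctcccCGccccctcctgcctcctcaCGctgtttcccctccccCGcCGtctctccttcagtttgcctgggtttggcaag

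The Zfp352 window held 2 CpGs and a GC content of 47.0%, whereas the Setdb1 window held 15 CpGs at 55.3% GC. The ratio of observed to expected CpG was 0.142 for Zfp352 and 0.703 for Setdb1. Of the 10 genes, 7 had a promoter window in the table, and Dppa2, Dppa4 and Dppa3 did not. The windows of all 6 repressors passed both a CpG ratio of 0.6 and a GC content of 50%, limits in common use for CpG islands, which 45.1% of 21263 windows of protein-coding genes passed. Their ratios were 1.08 for Chaf1a and for Kdm1a, 0.975 for Smchd1, 0.809 for Chaf1b and 0.761 for Trim28. With only the bases before the start, the ratio for Chaf1a was 1.20 and no window changed sides of the limit. TAATCC, the core recognised by bicoid-type homeodomains, occurred 9 times in the Zfp352 window, all in the printed direction and most within a tandem repeat. On both strands together 6.42% of windows held it at least once, and the next highest count in any window was 4. The 16-base stretch TAATCCAGGACAACAC starts with TAATCC and is the first of the most frequent stretches of its length in the window. It occurred 6 times there and in no other of the 21263 windows, from which nothing is read because it was picked from this window. GATTNAATC, the core of a motif bound by DUX, was in none of the 7 windows and in 0.245% of all windows, on either strand.

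**Figure D1:**
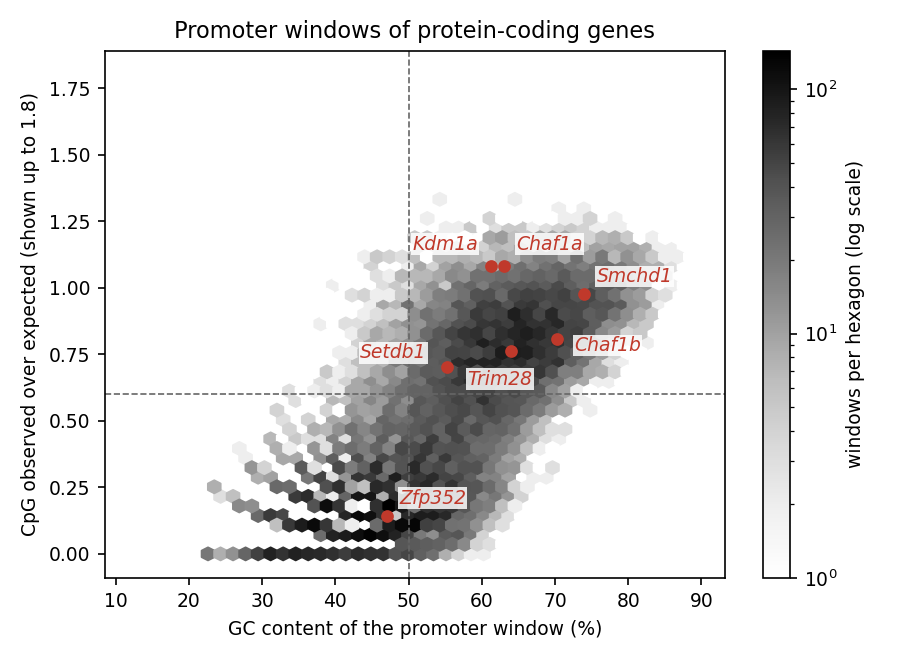
CpG observed over expected (y axis) against GC content in percent (x axis) for promoter windows of protein-coding genes (grey hexagons, counts on a log scale) and for the 7 genes of the set with a window (red points). Dashed lines mark the limits of 0.6 and 50%, and Zfp352, at 0.142, lies apart from the 6 repressors, which lie between 0.703 and 1.08.

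The knockdown itself was visible on every array. The log2 signal of Kdm2b was 8.68, 9.12, 9.45 and 8.91 on shKdm2b arrays 1 to 4 and 10.74, 11.10, 11.34 and 11.20 on shScr arrays 1 to 4. Markers of ESCs were bright in both groups, the mean over 10 of them lying between 12.99 and 13.06 on shKdm2b arrays and between 12.66 and 12.95 on shScr arrays. Tbx3, 1 of the 10, met the gene rule as higher, where 1.42% of all genes did. At an unadjusted p under 0.05 from limma, 6 of the 10 were higher and none lower, where 16.5% of all genes were higher. The groups did not overlap for 5 of the 10, all higher, where 11.3% of all genes were higher without overlap. Lists of primitive endoderm, trophoblast, fibroblast and neural markers had array means of 8.04 to 9.33 in shKdm2b and of 8.02 to 9.66 in shScr. Neurod1 and Pax6, 2 of the 7 neural markers measured, met the rule as lower, where 1.43% of all genes did. Thy1, 1 of 8 fibroblast markers, met it as higher. At an unadjusted p under 0.05 from limma, 4 of the 7 neural markers were lower and 1 higher. Of 8 markers each, 1 fibroblast marker was lower and 1 higher, and 4 primitive endoderm markers were higher and 1 lower. For trophoblast 1 of 8 was lower and none higher. At that limit 13.4% of all genes were lower. The part of other cell types in the results below was not tested.

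Both activators were lower in the knockdown cells. Dppa2 had log2 signals of 9.81, 10.83, 11.01 and 10.32 on shKdm2b arrays 1 to 4, against 11.72, 11.72, 11.37 and 11.59 on shScr arrays 1 to 4, by its first probe set. All knockdown arrays lay below all control arrays, and the knockdown arrays were spread over more than a log2 unit while the control arrays were close together. The mean was 10.49 ± 0.54 in shKdm2b and 11.60 ± 0.16 in shScr (SD, n = 4 each), a log2 fold change of -1.10 (standard error, SE, 0.24, and 95% confidence interval, CI, -1.65 to -0.56). In these mixed cultures, fewer cells that make a transcript and less transcript per cell cannot be told apart.

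The second Dppa2 probe set gave a smaller difference of the same sign. It read 12.88, 13.30, 13.39 and 12.95 on shKdm2b arrays 1 to 4 and 13.79, 13.89, 13.78 and 13.80 on shScr arrays 1 to 4. The groups again did not overlap, and replicates 1 and 4 were again the lowest of the knockdown arrays. The log2 fold change was -0.68 (SE 0.12, 95% CI -0.95 to -0.42).

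Dppa4 lies next to Dppa2 on chromosome 16, with no protein-coding gene between them in GRCm38.p6, and its protein is the partner of DPPA2. Its first probe set read 10.46, 10.94, 11.08 and 10.46 on shKdm2b arrays 1 to 4 and 11.74, 11.89, 11.91 and 11.81 on shScr arrays 1 to 4. The second probe set read 10.38, 10.48, 10.71 and 10.36 on shKdm2b arrays 1 to 4 and 11.35, 11.55, 11.56 and 11.32 on shScr arrays 1 to 4. The groups were apart on both probe sets, with shKdm2b replicate 3 nearest to the controls on each. The log2 fold changes were -1.10 (SE 0.15, 95% CI -1.44 to -0.77) and -0.96 (SE 0.10, 95% CI -1.18 to -0.75), which are changes of -53.5% and -48.7% in signal. As the groups did not overlap, the knockdown array had to be the lower one in any pairing of the arrays. The 4 pairs with the same replicate number differed by -1.35 to -0.83 on the first probe set and by -1.07 to -0.85 on the second.

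Probe sets of this array are numbered along the chromosomes, and the numbers show that not all probe sets naming these genes stand at the gene. The first Dppa2 probe set had 19 of its 20 nearest single-gene probe sets by number on chromosome 16, where Dppa2 lies, whereas all 18 such neighbours with a known chromosome of the second lay on chromosome 19. For the second Dppa4 probe set, 20 of 20 neighbours lay on chromosome 2, and for the second Dppa3 probe set 20 of 20 lay on chromosome X, although Dppa3 is a gene of chromosome 6. Over all 21698 single-gene probe sets with a chromosome, 3.18% had most neighbours on a chromosome other than their gene's. What else these 3 probe sets read, such as processed copies of the transcripts, was not tested, and their values are given as those of the gene they are annotated to. For Dppa2, Dppa4 and Dppa3 the first probe sets stand among neighbours of the gene's own chromosome.

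Zfp352 was the most reduced gene of the set. Its log2 signal was 7.01, 6.93, 7.32 and 7.20 on shKdm2b arrays 1 to 4 and 9.28, 8.52, 8.25 and 9.42 on shScr arrays 1 to 4. The knockdown arrays were low and close together, and among the controls replicates 1 and 4 stood above replicates 2 and 3. The mean was 7.11 ± 0.18 in shKdm2b and 8.87 ± 0.57 in shScr (SD, n = 4 each), a log2 fold change of -1.75 (SE 0.25, 95% CI -2.33 to -1.18). Only 0.211% of all probe sets had a lower fold change. Since RMA compresses differences between dim probe sets, the low knockdown values limit how far this difference can be read.

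Dppa3, which encodes a maternal factor that shields the early embryo's DNA methylation and is expressed in naive ESCs, overlapped between the groups. By its first probe set it read 8.70, 8.21, 7.90 and 8.18 on shKdm2b arrays 1 to 4 and 8.67, 8.70, 8.76 and 8.89 on shScr arrays 1 to 4. Knockdown replicate 1 lay within the controls, and the other 3 knockdown arrays lay below all of them. The log2 fold changes of the 2 probe sets were -0.51 (SE 0.15, 95% CI -0.85 to -0.17) and -0.63 (SE 0.19, 95% CI -1.07 to -0.20). Replicate 1, the highest knockdown array for Dppa3, was the lowest for Dppa2.

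**Figure D2:**
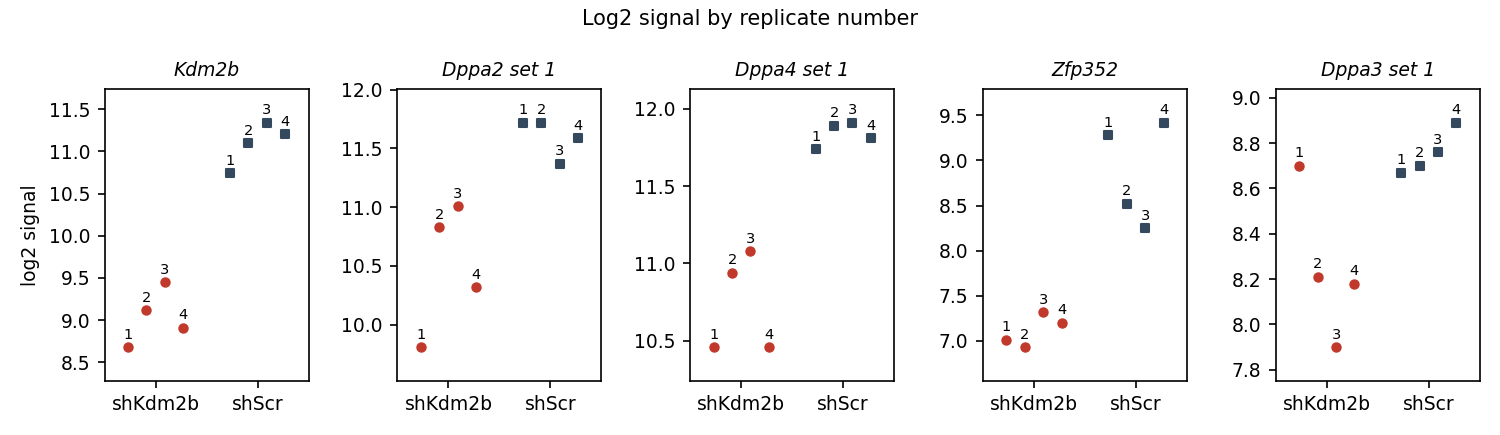
Log2 signal (y axis, a scale of its own for each gene) of Kdm2b, Dppa2, Dppa4, Zfp352 and Dppa3 on the shKdm2b arrays (red circles) and the shScr arrays (dark squares), numbered by replicate. Knockdown replicate 1 is lowest for Kdm2b and Dppa2 and highest for Dppa3, and control replicates 1 and 4 are highest for Zfp352.

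The repressors differed little between the groups, none by 1.5-fold in either direction. Setdb1, which encodes a histone H3 lysine methyltransferase, read 11.53, 11.65, 11.77 and 11.60 on shKdm2b arrays 1 to 4 and 11.88, 11.89, 11.95 and 11.97 on shScr arrays 1 to 4. Its groups did not overlap, and its log2 fold change was -0.29 (SE 0.06, 95% CI -0.43 to -0.14), a change of -18.0% in signal. Trim28, whose protein brings SETDB1 to chromatin through KRAB zinc finger proteins, read 13.66, 13.82, 13.92 and 13.83 on shKdm2b arrays 1 to 4 and 13.89, 14.00, 14.00 and 14.06 on shScr arrays 1 to 4. Only knockdown replicate 3 reached into the control range. The log2 fold change of Trim28 was -0.18 (SE 0.07, 95% CI -0.34 to -0.03). Bright genes leaned low on these arrays, and 38.3% of all genes had a fold change below 0. The share was 57.1% at a mean log2 level from 11 to 12, where Setdb1 lies, and 63.7% from 13 to 16, where Trim28 lies. The part of this lean in the differences of these genes was not tested.

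The genes of both large CAF-1 subunits were not alike. Chaf1a read 10.71, 10.91, 11.01 and 10.86 on shKdm2b arrays 1 to 4 and 10.98, 11.06, 11.15 and 11.06 on shScr arrays 1 to 4, with a log2 fold change of -0.19 (SE 0.07, 95% CI -0.36 to -0.02). Chaf1b read 12.26, 12.12, 12.16 and 12.08 on shKdm2b arrays 1 to 4 and 12.06, 12.11, 12.13 and 11.98 on shScr arrays 1 to 4, with a log2 fold change of 0.09 (SE 0.06, 95% CI -0.05 to 0.22). The arrays of the groups overlapped for each of these genes, and the difference between the genes was not tested.

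Kdm1a and Smchd1 were close to equal between the groups. Kdm1a, a histone demethylase gene, read 12.81, 12.87, 12.86 and 12.91 on shKdm2b arrays 1 to 4 and 12.92, 12.90, 12.81 and 12.95 on shScr arrays 1 to 4, with a log2 fold change of -0.03 (SE 0.05, 95% CI -0.15 to 0.09). Smchd1 read 11.46, 11.34, 11.34 and 11.38 on shKdm2b arrays 1 to 4 and 11.25, 11.33, 11.55 and 11.36 on shScr arrays 1 to 4 by its first probe set. Its log2 fold changes were 0.01 (SE 0.07, 95% CI -0.16 to 0.18) and -0.04 (SE 0.06, 95% CI -0.18 to 0.09). These intervals leave room for differences of up to 0.18 on the log2 scale in either direction.

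**Figure D3:**
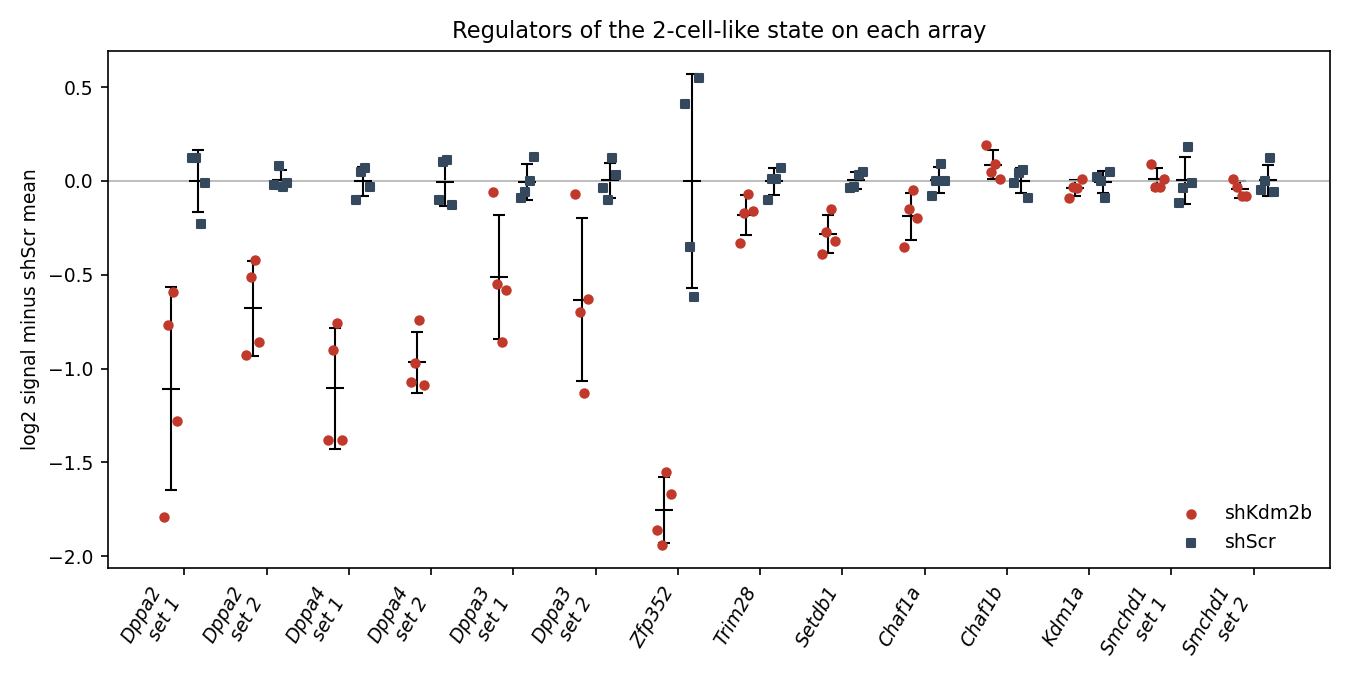
Log2 signal minus the shScr mean of the same probe set (y axis) for the 14 probe sets of the 10 genes (x axis) on shKdm2b arrays (red circles) and shScr arrays (dark squares). Bars show the mean and SD (n = 4 arrays per group). The arrays of the groups are apart for Dppa2, Dppa4, Zfp352 and Setdb1 and overlap for the other 6 genes.

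By the rule of the study's methods, a gene counts as changed when most of its probe sets have an adjusted p under 0.05 from limma and the most significant one changes at least 1.5-fold. Over all genes 2.85% met it, 1.43% as lower and 1.42% as higher, and 8.48% of all probe sets had a passing p. Dppa2, Dppa4 and Zfp352 met it as lower and the other 7 genes did not meet it, a count from which nothing is read because these genes were chosen with this comparison known. The groups did not overlap for 4 of the 10 genes, all lower, where 8.72% of all genes were lower without overlap and 20.0% were apart in either direction. The median log2 fold change was -0.24 for the 10 genes and 0.05 for all genes. The values nearest to the 1.5-fold limit were those of the second Dppa2 probe set, at 1.6-fold lower, and of Dppa3, at 1.42-fold and 1.55-fold lower.

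Some of these calls were lost or gained when 1 array was left out. Dppa2 no longer met the rule without shKdm2b replicate 2 or 4 or without any one of shScr replicates 1 to 4. In these fits its first probe set had log2 fold changes of -1.22, -1.04, -1.06, -1.06, -1.18 and -1.11, without an adjusted p under 0.05 from limma. Its second probe set kept such a p in each of them, and the rule needs both to pass. Dppa3 met it without shKdm2b replicate 1, at -0.66 and -0.82. With passages 28 to 30 alone and the passage as a block, none of the 10 genes met it with limma, at log2 fold changes of -0.88 and -0.60 for Dppa2, -1.02 and -0.97 for Dppa4 and -1.53 for Zfp352. That comparison has 3 arrays a group. After subtraction of the group mean, arrays of the same passage had correlations of -0.0454, -0.0899 and -0.0977 over probe sets. A part of passage in the lost calls was not tested.

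Other markers of the 2-cell-like state were lower together with Zfp352. Of 14 such markers measured, 11 met the rule as lower, where 1.43% of all genes did, and 3 did not meet it. The lists of this and later paragraphs, like the set, were chosen with earlier results of these data known. Their counts and p-values are therefore given as a description and not as a test. The median log2 fold change of the 14 was -1.76. Several of the 14 are close relatives in the Usp17 and Tdpoz families and do not count as independent markers. Gm5662, a transcript of the 2-cell stage, read 4.93, 4.89, 5.62 and 5.66 on shKdm2b arrays 1 to 4 and 12.04, 11.44, 10.73 and 12.25 on shScr arrays 1 to 4 (log2 fold change -6.34, SE 0.34, limma adjusted p 9.33e-05). Arg2, which encodes a mitochondrial arginase, read 7.37, 7.63, 7.86 and 7.66 on shKdm2b arrays and 9.79, 9.27, 9.38 and 10.52 on shScr arrays (log2 fold change -2.11, SE 0.25, limma adjusted p 0.00373). Tdpoz3, a gene of the TRAF and POZ domain family, and Usp17la, a deubiquitinase gene, fell, with log2 fold changes of -3.59 and -2.83 (SEs 0.33 and 0.30, limma adjusted p 0.00124 and 0.00234), and both have near-identical relatives that a probe set may also read. The other 16 listed markers had no probe set of their own.

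The control arrays differed among themselves in the level of these markers in the way seen for Zfp352. In shScr, replicates 1 and 4 were both above replicates 2 and 3 for 13 of the 14 markers, where 16.4% of all genes had this order, which was looked for after the values had been seen. Zfp352 and Kdm1a showed it among the 10 genes of the set, and Dppa2, Dppa4 and Dppa3 did not. The SD of the markers was 0.06 to 0.42 over the knockdown arrays and 0.12 to 0.76 over the control arrays. It was larger in the controls for 13 of 14, as for 36.4% of all genes. RMA compresses the spread of dim probe sets, and the markers were dim in the knockdown cells, so that nothing is read from this. The activators had the larger SD in the knockdown arrays, like most genes, at 0.54 in shKdm2b and 0.16 in shScr for the first Dppa2 probe set and at 0.32 in shKdm2b and 0.08 in shScr for that of Dppa4.

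Other activators of the state differed by less than 1.5-fold. Of 3 measured, none met the rule with limma and 2 were lower at an unadjusted p under 0.05, where 13.4% of all genes were lower and 16.5% higher at that limit. Nelfa, which encodes a subunit of a transcription pausing factor, read 12.58, 12.58, 12.64 and 12.61 on shKdm2b arrays and 12.90, 12.80, 12.85 and 12.95 on shScr arrays (log2 fold change -0.27, SE 0.05, limma adjusted p 0.0199), short of 1.5-fold. Smarca5, a chromatin remodeller gene, had a log2 fold change of -0.23 (SE 0.08, limma adjusted p 0.0956). Dux itself had no probe set of its own. The DPPA relatives Dppa5a and Dppa1 had log2 fold changes of 0.24 and 0.12 (SEs 0.09 and 0.08, limma adjusted p 0.124 and 0.369). Nkx2-5 and Syce1, known as targets of DPPA2 and DPPA4 in mouse cells, were at 9.76 in shKdm2b and 9.67 in shScr and at 10.13 in shKdm2b and 9.94 in shScr, and none of these 4 genes met the rule with limma, 1 of them being higher at an unadjusted p under 0.05.

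Among 6 further lists of repressors, 1 of 68 genes met the rule, where 2.85% of all genes did. Cabin1, which encodes a subunit of the HIRA histone chaperone complex, fell by 0.91 on the log2 scale (SE 0.09, limma adjusted p 0.00179), with 10.20 to 10.53 on the shKdm2b arrays and 11.20 to 11.44 on the shScr arrays. The partners of TRIM28 and SETDB1 and other heterochromatin factors were all on the low side without reaching 1.5-fold with a passing p. All 13 measured had a log2 fold change below 0 (median -0.28, from -0.61 to -0.19), none met the rule with limma, and 11 were lower at an unadjusted p under 0.05, against 13.4% of all genes. Cbx5, the gene of heterochromatin protein HP1 alpha, had a log2 fold change of -0.49 (SE 0.06, limma adjusted p 0.00418), and Ehmt2, a histone H3 lysine methyltransferase gene, of -0.25 (SE 0.06, limma adjusted p 0.0370). Bright probe sets leaned the same way on these arrays. Of the genes with a mean log2 level from 11 to 12, 57.1% had a fold change below 0 (median -0.04) and 24.8% were lower at an unadjusted p under 0.05. Over all genes 38.3% had a fold change below 0. The part of this lean in the list was not tested. With the values quantile normalized once more the median of the list was -0.26.

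Most of the remaining repressor lists also lay on the low side. Of genes with a mean log2 level from 11 to 12, 57.1% had a fold change below 0, against 38.3% of all genes. At an unadjusted p under 0.05 from limma, 24.8% at that level were lower, against 13.4% of all genes. Over all genes 16.5% were higher at that p. The part of the lean of bright genes in these lists was not tested. With a second quantile normalization the medians were -0.16 for histone chaperones, -0.04 for PRC1.6, -0.07 for SUMO, -0.06 for TIP60-EP400 and 0.06 for KDM1A-CoREST. Log2 fold changes were below 0 for 12 of 14 histone chaperones and assembly factors, 10 of 11 PRC1.6 genes, 8 of 9 SUMO pathway genes and 9 of 11 genes of the TIP60-EP400 list, but for 3 of 10 of the KDM1A-CoREST complex. Of the 14 histone chaperones and assembly factors, 13 did not meet the rule (median -0.19), and 6 of the 14 were lower and none higher at an unadjusted p under 0.05 from limma. The KDM1A-CoREST complex had a median of 0.03 over 10 genes, none of which met the rule with limma and 2 of which were higher at an unadjusted p under 0.05. Zmym3 and Phf21a, genes of zinc finger proteins of that complex, had log2 fold changes of 0.42 and 0.22 (SEs 0.12 and 0.10, limma adjusted p 0.0703 and 0.188). The PRC1.6 complex, a variant polycomb complex, had a median of -0.09 over 11 genes, none of which met the rule with limma and 2 of which were lower at an unadjusted p under 0.05, with Pcgf6 at -0.26 and Tfdp1 at -0.21 (SEs 0.08 and 0.06, limma adjusted p 0.0734 and 0.0512). The SUMO pathway had a median of -0.12 over 9 genes, none of which met the rule with limma and 4 of which were lower at an unadjusted p under 0.05, with Pias2 at -0.17 and Pias1 at -0.15 (SEs 0.06 and 0.06, limma adjusted p 0.114 and 0.158). In the last list, of TIP60-EP400 subunits and other repressors, none of 11 met the rule with limma and 2 were lower at an unadjusted p under 0.05. They were Ncl at -0.20 and Myc at -0.88 (SEs 0.08 and 0.33, limma adjusted p 0.157 and 0.142). For Myc, shKdm2b replicates 1 and 4 were low, at 10.26 and 10.64, while replicates 2 and 3 were at 11.53 and 11.94 and the control arrays between 11.77 and 12.12.

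**Figure D4:**
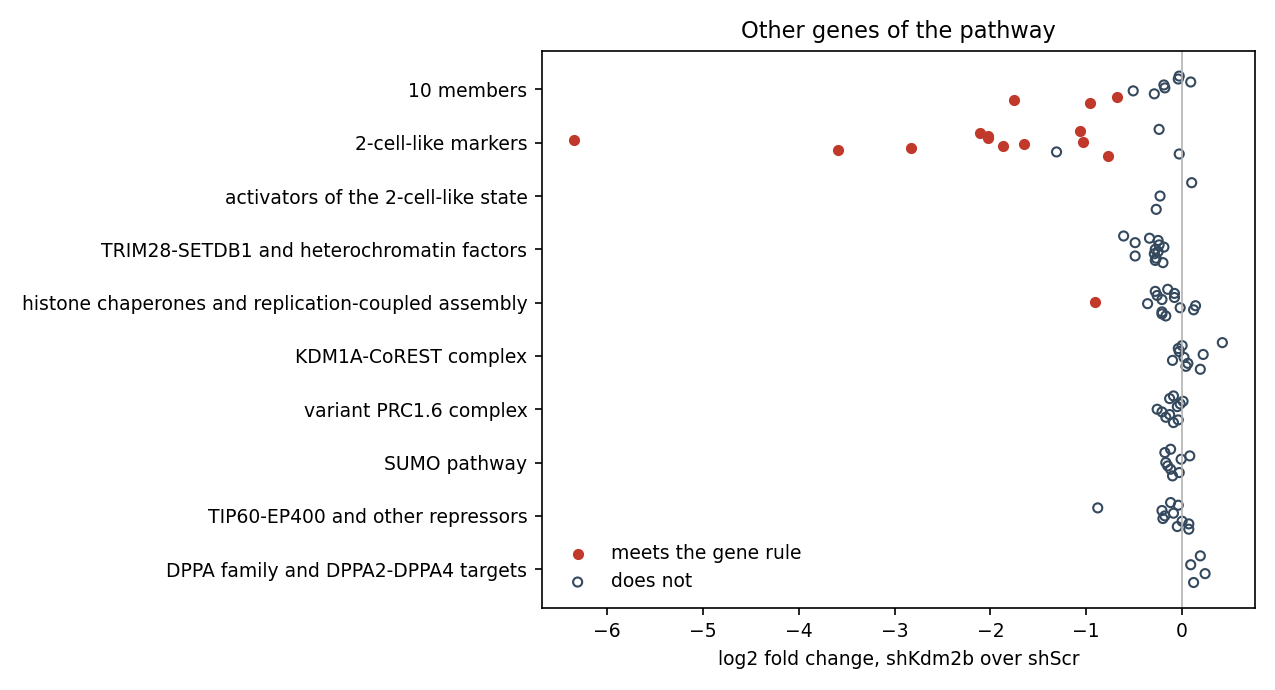
Log2 fold change of shKdm2b over shScr (x axis) for the 10 genes of the set and for the measured genes of 9 lists (y axis), with 1 point per gene, the probe set with the smallest p. Filled red points meet the gene rule and open points do not. The 2-cell-like markers reach -6.34, whereas the repressor lists lie between -0.91 and 0.42.

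The genes most like those of the set over the 8 arrays were found by the root mean square difference between log2 values relative to the shScr mean, with the brighter probe set of a gene that has more than 1. Transcripts with Gm or Rik names were left out of this search. For Zfp352 they were Usp17lc, Usp17lb and Tmem92, at 0.148, 0.211 and 0.287, all of them listed markers of the 2-cell-like state. For Dppa4 they were Abcb1a, Prex2 and Lipo3, at 0.0714, 0.0971 and 0.109, and for Dppa2 they were Mest, Fgf17 and Rmdn2, at 0.0662, 0.0710 and 0.0753. The probe set used for Dppa2 was the second, whose neighbours by number lie on chromosome 19, and the first, with the larger difference, was not compared in this way. For Setdb1, whose difference is small, they were Ints5, Mtx1 and Orc4, at 0.0325, 0.0337 and 0.0368. No marker of the 2-cell-like state was among the 3 genes nearest to Dppa2 or Dppa4. The measure depends on the size of the fold change, and the markers had a median of -1.76. With Zfp352 at -1.75, nothing is read from the markers near it or from their absence near Dppa2 and Dppa4.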

How the data were processed

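The deposited values are log2 signals from Affymetrix Mouse Gene ST arrays. The authors produced them by RMA in the R package oligo (version 1.18.1 per the submitters' processing notes), that is by background correction, quantile normalization and summary into 1 value per probe set. No genome build or annotation for the probe sets is given in the sources used here. Such values compress the differences of dim probe sets and hide any shift shared by most transcripts.

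Probe sets were named through GEO's platform annotation, with symbols updated by gene identifier from the RefSeq table of GRCm38.p6. The comparison of shKdm2b with shScr was fitted with limma 3.58.1 (lmFit and eBayes, default prior, R 4.3.3) on 35556 probe sets, and p-values were adjusted by Benjamini-Hochberg over the whole table. Of these, 3015 (8.48%) had an adjusted p under 0.05. Standard errors and intervals are those of the moderated fit, and the number of arrays limits their precision. The scripts were tested on simulated data first. Promoter windows are those of RefSeq for GRCm38.p6.

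Replicate numbers are shared by the groups. After subtraction of the group mean, arrays with the same number had correlations of 0.239, 0.118, 0.355 and 0.222 over probe sets, each above 0.1, and were treated as pairs in the check with a block. The methods mention no block, so the values given are from the fit without one.

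The genes of the set and the lists of other genes were chosen with earlier results of these data known. Named genes are the 10 of the set, Kdm2b, up to 4 genes per list that met the gene rule by smallest p (or the 2 with the smallest p where none did) and the 3 genes most like each gene of the set whose groups did not overlap. Tbx3, Neurod1, Pax6 and Thy1 are named because few markers met the rule, and Myc replicates are given for their spread, both chosen after their values were seen. Alternatives were a replicate block, leaving out each array, passages 28 to 30, equal array medians, a second quantile normalization, a trend in eBayes, a filter on dim probe sets, and other ways of counting genes. Figures were drawn with matplotlib 3.10.9.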

Additional observations from a re-analysis of the deposited data

How the results depend on the processing

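The log2 fold changes of the 10 genes took 199 values under the alternatives. The first probe sets ran from -1.28 to -0.88 for Dppa2 and from -1.22 to -1.01 for Dppa4, and Zfp352 from -1.96 to -1.53. For the first Dppa2 probe set the largest move exceeded the SD of shScr (0.16) but not that of shKdm2b (0.54). For Zfp352 it exceeded the SD of shKdm2b (0.18) but not that of shScr (0.57). With the replicate number as a block, 3 of the 10 genes met the gene rule as lower, as without it, and 12 genes of the 9 lists did, so that the pairing changed no count by more than 1.5 times. Leaving out 1 array gave 2 to 4 of the 10 genes as lower, 11 to 13 genes of the lists as lower, and 182 to 405 genes as higher and 166 to 424 as lower over the whole table. With passages 28 to 30 alone, limma gave 0 of the 10 genes as lower, and 88 genes as higher and 72 as lower over the whole table, in a fit with fewer arrays. Without a minimum fold, 1147 genes were higher and 908 lower. With dim probe sets left out, which removes Zfp352 and most markers of the 2-cell-like state, 3 genes of the lists were lower, and with probe sets of several genes counted too, 25 were, 23 of them markers of the 2-cell-like state. The number of arrays, the use of 1 shRNA per group and the low signal of the markers in the knockdown cells limit these results, as do probe sets that may read copies of a transcript.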

Other observations

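Within the knockdown group, the arrays stood in the same order for several genes of the set as for Kdm2b itself. From lowest to highest, the order for Kdm2b was replicate 1, 4, 2 and 3, and both Dppa2 probe sets, the first Dppa4 probe set, Setdb1 and Chaf1a had that order. Of all single-gene probe sets 8.41% had it, and of the 1060 that were lower at an adjusted p under 0.05 from limma 17.6% had it. The second Dppa4 probe set, Zfp352, Dppa3, Trim28, Chaf1b, Kdm1a and Smchd1 had other orders. For the first Dppa4 probe set, replicates 1 and 4 both read 10.46, so that their order rests on less than the printed digits. The order was noticed after the values had been seen, it concerns 4 arrays, and its cause was not tested.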
